A study of Mus musculus with 18 samples.

Results

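The expression of 10 innate immune genes of the Toll-like receptor system was followed in striatal microglia of a Huntington's disease mouse model with and without *Tyrobp*. These were the receptor genes *Tlr1*, *Tlr2*, *Tlr3*, *Tlr4*, *Tlr6*, *Tlr7* and *Tlr9*, the co-receptor gene *Cd14* and the adaptor genes *Myd88* and *Ticam1*. They were chosen by symbol from the 55536 genes of the count table, and all 10 were found there through their Ensembl identifiers in GENCODE release M21. Microglia had been pulled from dissociated striatum by CD11b beads, which also bind other myeloid cells, and their RNA was sequenced. The 18 samples fell into 4 genotype groups on a C57BL/6 background. They were 5 WT samples (1 female, 4 male), 3 Tyrobp-KO samples (2 female, 1 male), 5 Q175 samples (4 female, 1 male) and 5 Q175;Tyrobp-KO samples (2 female, 3 male). Q175 mice carry an expanded CAG repeat in the mouse huntingtin gene, and the study's methods give heterozygotes. In Tyrobp-KO mice, *Tyrobp*, which codes for the signalling adaptor DAP12 of microglial surface receptors, is deleted in every cell and not in microglia alone. All groups share the dissociation and the bead sort, and the mice were adult, with no exact age given for this experiment in the sources used here.

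Toll-like receptors are membrane proteins that recognise conserved microbial molecules and some molecules released by damaged cells. TLR2 pairs with TLR1 or TLR6 at the cell surface to bind lipopeptides, TLR4 binds lipopolysaccharide that CD14 hands over, and TLR3, TLR7 and TLR9 sense nucleic acids in endosomes. All of these receptors except TLR3 signal through the adaptor MYD88, TLR3 and internalised TLR4 signal through TRIF, the product of *Ticam1*, and both routes end in NF-κB and interferon regulatory factors. Microglia are the main cells of the brain that carry these receptors.

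The count of *Tyrobp* was checked first. Its level lay between 196 and 475 CPM (counts scaled to a library of equal size) in the 10 samples of WT and Q175 and between 9.90 and 21.3 CPM in the 8 samples of both *Tyrobp*-null groups, so that the *Tyrobp* part of every label was met. The Q175 allele was not checked by this count. Total counts ran from 11260410 to 29771983 per sample, and the counts of the 10 genes ran from 98 (*Ticam1*) to 11438 (*Tlr7*) in a single sample. All 16 microglial markers had counts in all 18 samples, with a summed level of 18108 to 29894 CPM, against 5.69 to 182 CPM for the 8 markers of monocytes and neutrophils and 6.85 to 33.7 CPM for the 7 markers of border macrophages. The 12 astrocyte markers summed to 653 to 1171 CPM in WT and to 1142 to 6434 CPM in Q175, and all 12 were counted in every library. In sequencing of pooled cells, fewer cells of a type and less RNA per cell cannot be told apart.

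Some of these genes share sequence, which bears on their counts. *Tlr1* and *Tlr6* are neighbours on the minus strand of chromosome 5 (GRCm38, chr5:64924679-64933563 and chr5:64952031-64960097), and their coding exons hold an identical stretch of 229 bases. Of all windows of 50 bases, 15.26% of those in the *Tlr1* transcript and 12.51% of those in the *Tlr6* transcript were found in the other. A read from such a window cannot be given to 1 of the genes by its sequence, so their counts are less certain than those of the other receptors. The stretch is shown with flanks of the coding strand, 5′ to 3′, because it is the longest run of identical bases between them, and other shared windows lie outside it. The capitals mark the 2 bases that differ (Tlr1 at chr5:64925507-64925795, Tlr6 at chr5:64953798-64954086):
Tlr1: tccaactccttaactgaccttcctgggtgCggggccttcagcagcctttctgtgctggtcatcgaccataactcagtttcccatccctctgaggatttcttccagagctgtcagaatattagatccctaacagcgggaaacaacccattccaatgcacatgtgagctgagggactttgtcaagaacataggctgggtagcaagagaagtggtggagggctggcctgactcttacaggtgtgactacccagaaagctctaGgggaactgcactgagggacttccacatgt
Tlr6: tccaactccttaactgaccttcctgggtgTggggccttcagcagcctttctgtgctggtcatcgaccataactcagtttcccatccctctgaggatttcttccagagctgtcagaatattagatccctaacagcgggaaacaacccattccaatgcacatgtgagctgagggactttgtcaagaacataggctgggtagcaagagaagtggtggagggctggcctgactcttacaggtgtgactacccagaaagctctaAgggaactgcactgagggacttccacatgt

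The genes also differ in base composition, and part of their spread between samples followed it. The transcripts of *Tlr4*, *Tlr3* and *Tlr7* hold 39.39%, 40.03% and 40.95% G and C, that of *Tlr2* 49.34%, and those of *Tlr9* and *Ticam1* 56.21% and 56.42%, where the median of the expressed genes was 49.23%. Coding windows of 120 bases from 3 receptors show the contrast, with every G and C in capitals. They hold 67 such bases in *Tlr9* (chr9:106223616-106223735, plus strand), 59 in *Tlr2* (chr3:83838507-83838626, minus strand) and 49 in *Tlr7* (chrX:167308321-167308440, minus strand), read on the coding strand, 5′ to 3′:
Tlr9: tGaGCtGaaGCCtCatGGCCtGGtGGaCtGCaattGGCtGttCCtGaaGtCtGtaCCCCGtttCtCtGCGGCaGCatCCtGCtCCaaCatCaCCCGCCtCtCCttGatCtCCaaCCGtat
Tlr2: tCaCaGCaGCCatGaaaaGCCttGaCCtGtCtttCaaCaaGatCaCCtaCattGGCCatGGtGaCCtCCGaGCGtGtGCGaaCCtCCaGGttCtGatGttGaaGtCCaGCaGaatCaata
Tlr7: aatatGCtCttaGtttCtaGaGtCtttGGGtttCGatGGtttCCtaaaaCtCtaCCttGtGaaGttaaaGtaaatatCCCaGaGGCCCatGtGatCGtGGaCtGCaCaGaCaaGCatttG

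All 10 genes were expressed well above the filter of 1 CPM, and their levels per length spanned more than 1 order of magnitude. As median CPM per kb of exonic length over the 18 samples, *Tlr7* stood at 85.6 and *Cd14* at 76.8, followed by *Tlr4* at 26.8, *Tlr2* at 25.3, *Tlr3* at 17.2, *Tlr9* at 16.7, *Tlr1* at 14.9, *Myd88* at 12.9, *Tlr6* at 12.01 and *Ticam1* at 7.21. *Tlr7* and *Cd14* were among the more abundant transcripts of these cells, at rank 213 and 264 of 18613 expressed genes by mean level per kb. Their order was not fixed, since *Tlr7* exceeded *Cd14* in 9 of 18 samples, while *Cd14* exceeded *Tlr4* in 18 of 18 without overlap of their ranges. *Tlr4* exceeded *Tlr2* in 6 of 18 samples, *Tlr3* exceeded *Tlr9* in 9 of 18 and *Tlr9* exceeded *Tlr1* in 9 of 18, so that these neighbours did not differ beyond their spread. Of the 5 other receptor genes of the family, *Tlr13*, a sensor of bacterial ribosomal RNA in endosomes, was abundant (56.3 CPM per kb as a mean), *Tlr12* and *Tlr5* were lower (8.64 and 3.34), and *Tlr11* and *Tlr8* were at the edge of detection (0.258 and 0.182, with 3 to 33 counts per sample).

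**Figure D1:**
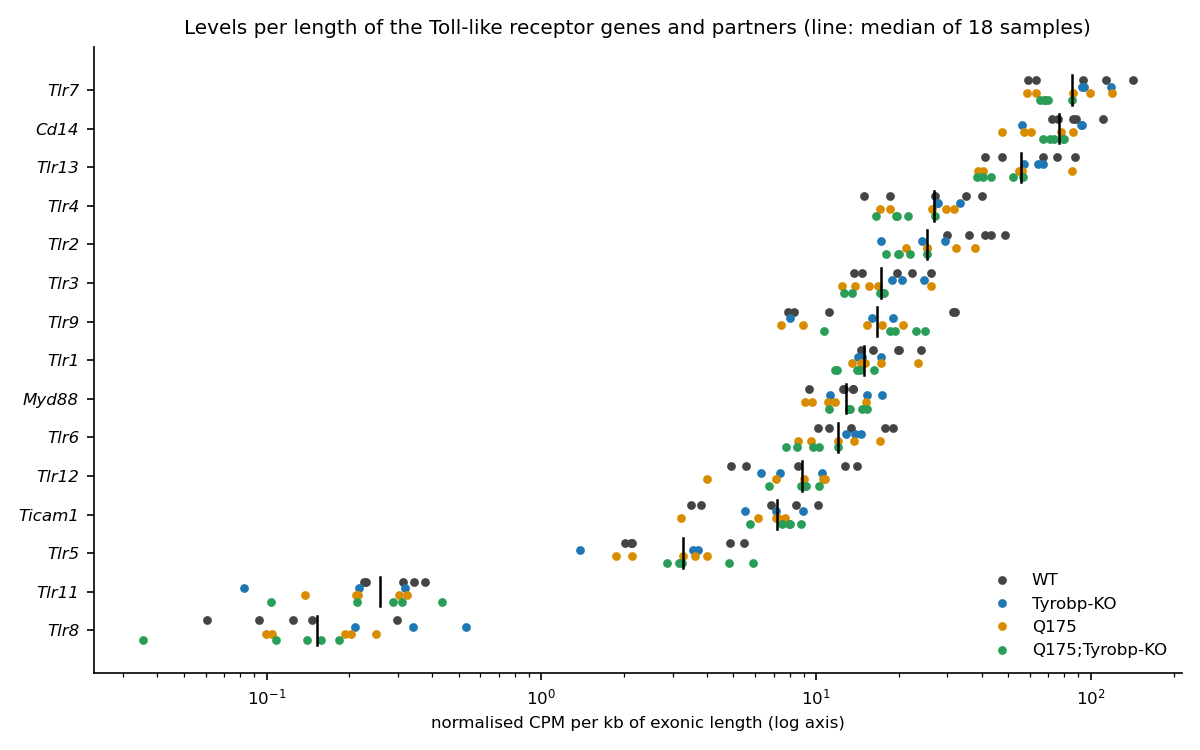
Normalised CPM per kb of exonic length (log axis) of the 10 genes and the 5 other Toll-like receptor genes, 1 point per sample coloured by genotype group, with a line at the median of the 18 samples. *Tlr7*, *Cd14* and *Tlr13* stand highest, *Tlr8* and *Tlr11* lie far below the rest, and most neighbours overlap.

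No member of the system differed between genotype groups at a false discovery rate (FDR) of 0.1 in edgeR's quasi-likelihood test in any of the 4 group comparisons, the interaction or the comparison of sexes. In Q175 against WT, 0 of 10 genes were called (0.0% of 18266 tested genes were). In Q175;Tyrobp-KO against Q175 it was 0 of 10 (0.0111% of 18059), in Tyrobp-KO against WT 0 of 10 (0.0222% of 18017) and in Q175;Tyrobp-KO against Tyrobp-KO 0 of 10 (0.0% of 17723). At an unadjusted p under 0.05, the same comparisons held 1, 1, 1 and 4 of the 10 genes, all of them at lower levels in the first group, where 6.24%, 8.01%, 6.82% and 13.2% of all tested genes passed that p in either direction and 0.766%, 4.56%, 3.15% and 8.24% at a lower level. *Tlr2* was the 1 gene in each of the first 3, and *Tlr3*, *Tlr4*, *Tlr6* and *Tlr7* were the 4 in the last. DESeq2 called 0, 0, 0 and 2 of the 10 at an FDR of 0.1, the 2 being *Tlr6* and *Tlr7*, where it called 1.28%, 0.227%, 0.932% and 3.84% of all genes. The comparisons share groups, so they are not independent of each other.

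**Figure D2:**
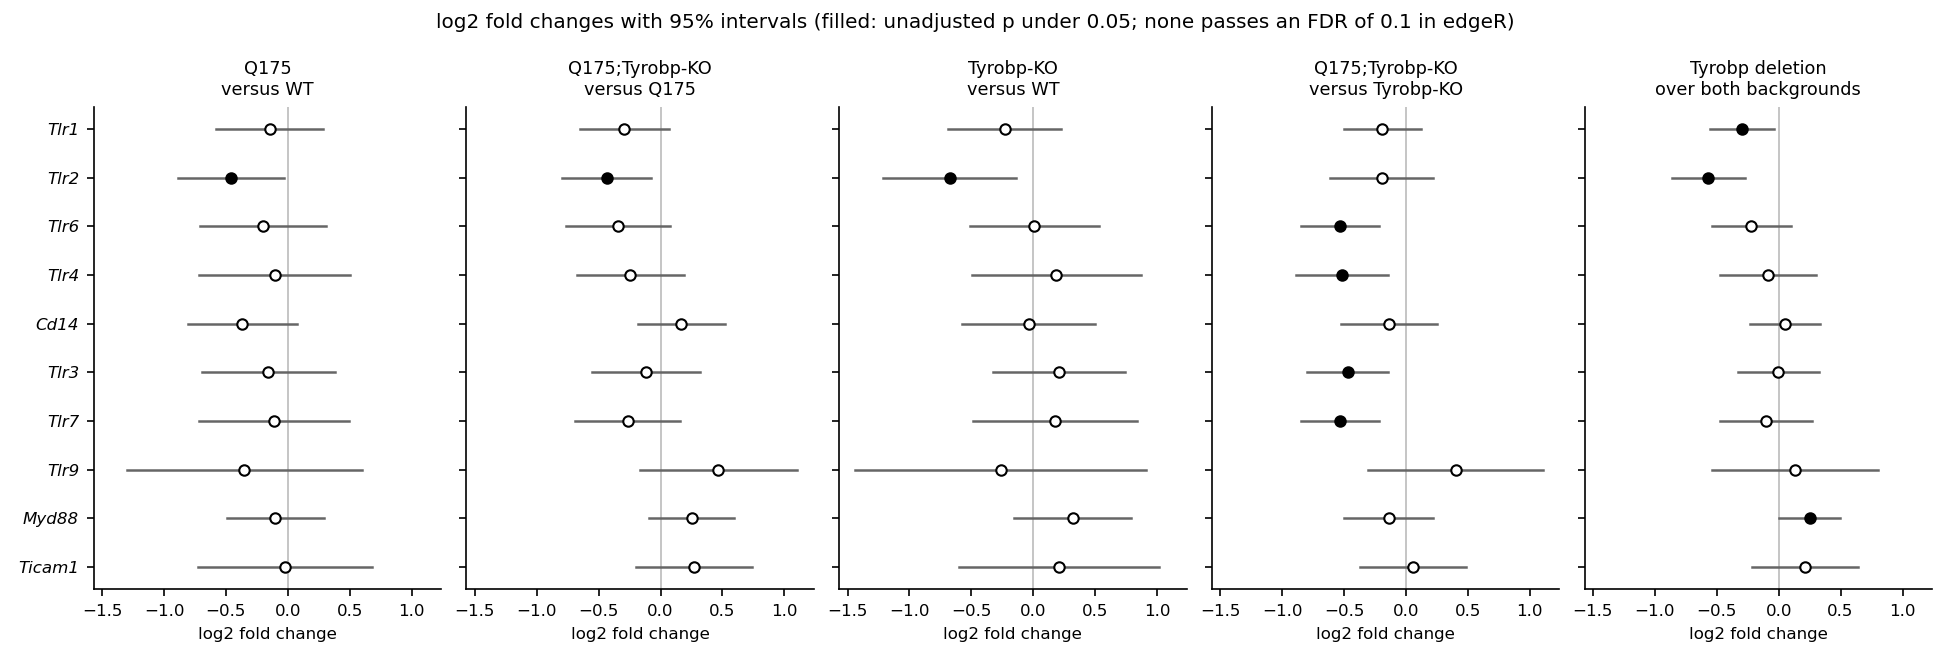
log2 fold change (x axis) of each of the 10 genes in the 4 group comparisons and for *Tyrobp* deletion over both backgrounds, with 95% intervals as bars. Filled points have an unadjusted p under 0.05 and no point passes an FDR of 0.1 in edgeR, while the intervals of *Tlr9* are the widest in all 5 panels.

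Among the receptors of lipopeptides, *Tlr2* (chr3:83836272-83841767), the shared chain of both heterodimers, had its highest levels in WT. It stood at 147, 130.3, 124, 108 and 90.5 CPM in WT replicates 1, 2, 6, 7 and 8, and at 89.1, 73.1 and 52.0 CPM in Tyrobp-KO replicates 15, 19 and 20. In Q175 replicates 3, 4, 9, 14 and 17 it stood at 96.9, 76.3, 64.2, 76.5 and 114 CPM, and in Q175;Tyrobp-KO replicates 5, 11, 12, 13 and 16 at 53.9, 76.2, 60.0, 60.4 and 65.9 CPM. Every *Tyrobp*-null sample thus lay below every WT sample, whereas the Q175 samples overlapped with all other groups. The group means were 120.01 ± 21.4 (SD, n = 5), 71.4 ± 18.6 (n = 3), 85.5 ± 19.7 (n = 5) and 63.3 ± 8.36 CPM (n = 5), in the same order of groups.

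The log2 fold change of *Tlr2* was −0.67 ± 0.24 (SE) in Tyrobp-KO against WT (adjusted p = 0.610), with no overlap of the groups, a pattern that 3.28% of tested genes showed in this direction. It was −0.46 ± 0.20 in Q175 against WT (adjusted p = 0.729), with Q175 lower in 22 of 25 pairs of samples. It was −0.44 ± 0.17 in Q175;Tyrobp-KO against Q175 (adjusted p = 0.533), lower in 23 of 25 pairs. Between the *Tyrobp*-null groups it was −0.20 ± 0.18 (adjusted p = 0.693), and these groups overlapped. Beside the value in Tyrobp-KO, 12 of 12 astrocyte markers had higher levels than in WT, 6 of them with p under 0.05, as had 9 of 10 neuron markers, 4 of them with p under 0.05, where 3.66% of all genes were higher with that p. Of the 16 microglial markers, 14 also stood above 0 and 2 below, with a median log2 fold change of 0.24 and none with p under 0.05. The summed level of the 7 border macrophage markers was 19.9 to 21.1 CPM in Tyrobp-KO and 8.71 to 20.2 CPM in WT, and that of the 8 monocyte and neutrophil markers 54.5 to 123 CPM and 5.69 to 182 CPM. No marker of either list was at 0 in all samples, and their part in the result was not tested.

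Of the partner chains of TLR2, *Tlr1* had narrower differences than *Tlr2*, while *Tlr6* differed most between the *Tyrobp*-null groups. *Tlr1* had group means of 63.3 ± 12.5 CPM in WT, 51.4 ± 5.32 in Tyrobp-KO, 56.0 ± 13.2 in Q175 and 45.8 ± 6.38 in Q175;Tyrobp-KO (SD, n = 5, 3, 5 and 5). Its log2 fold changes in the 4 comparisons lay between −0.29 and −0.15 with adjusted p between 0.533 and 0.999. All 4 group pairs overlapped. *Tlr6* stood at 37.8 to 71.2 CPM in WT (median 50.1), at 47.9, 51.5 and 54.2 CPM in Tyrobp-KO, at 32.1 to 63.4 CPM in Q175 (median 44.9) and at 28.9, 31.8, 36.1, 38.2 and 44.6 CPM in Q175;Tyrobp-KO. All 5 Q175;Tyrobp-KO samples thus lay below the 3 Tyrobp-KO samples, with a log2 fold change of −0.54 ± 0.14 (adjusted p = 0.291; 0.0657 in DESeq2).

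*Tlr4* (chr4:66827584-66930284), the receptor of lipopolysaccharide, spread widely within WT. It stood at 196, 150.4, 222, 82.8 and 103 CPM in WT replicates 1, 2, 6, 7 and 8, and at 154, 153 and 185 CPM in Tyrobp-KO replicates 15, 19 and 20. It stood at 103, 165, 94.6, 147 and 177 CPM in the Q175 samples and at 92.0, 151, 120.2, 108 and 109 CPM in the Q175;Tyrobp-KO samples, in the replicate order given for *Tlr2*. The WT range of 82.8 to 222 CPM took in every Tyrobp-KO, Q175 and Q175;Tyrobp-KO sample. Against WT, the log2 fold change was −0.10 in Q175 (95% interval −0.71 to 0.51) and 0.19 in Tyrobp-KO (−0.50 to 0.87). Changes anywhere within these intervals could thus not be excluded at this spread. Between the *Tyrobp*-null groups the log2 fold change was −0.52 ± 0.16 (adjusted p = 0.291), without overlap.

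*Cd14*, on chromosome 18, codes for the membrane protein that delivers lipopolysaccharide to TLR4 and its partner MD-2. It stood at 152, 192, 149, 131 and 124 CPM in the WT samples, at 159, 160.1 and 96.8 CPM in the Tyrobp-KO samples, at 149.6, 82.1, 105, 98.7 and 135 CPM in the Q175 samples and at 116, 138, 127, 137 and 123 CPM in the Q175;Tyrobp-KO samples. The Q175 mean of 114 ± 27.6 CPM lay below the WT mean of 149.7 ± 26.3 CPM, with 20 of 25 pairs lower (log2 fold change −0.37 ± 0.20, adjusted p = 0.925). In Q175;Tyrobp-KO the mean was 128 ± 9.57 CPM, and its log2 fold change against Q175 was 0.17 (95% interval −0.19 to 0.52). *Ly96*, the gene of MD-2, was counted at 4.95 to 16.6 CPM, with group means between 7.11 and 10.98 CPM.

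*Tlr3*, *Tlr7* and *Tlr9* are the nucleic acid sensors, for double-stranded RNA, single-stranded RNA and unmethylated CpG DNA. *Tlr7* (chrX:167304929-167330558) stood at 462, 383, 578, 241 and 258 CPM in the WT samples, at 384, 378 and 482 CPM in the Tyrobp-KO samples, at 258, 404, 239, 351 and 487 CPM in the Q175 samples and at 265, 348, 275, 277 and 284 CPM in the Q175;Tyrobp-KO samples. WT and Q175 spread widely and overlapped, while the 5 Q175;Tyrobp-KO samples lay close together and below the 3 Tyrobp-KO samples. The log2 fold change between the *Tyrobp*-null groups was −0.54 ± 0.14 (adjusted p = 0.291; 0.0359 in DESeq2). Against Q175, the value in Q175;Tyrobp-KO was −0.27 (95% interval −0.69 to 0.16).

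*Tlr3* had group means of 101 ± 27.4 CPM in WT, 111 ± 15.9 in Tyrobp-KO, 88.2 ± 28.5 in Q175 and 81.5 ± 12.3 in Q175;Tyrobp-KO. Its log2 fold change was −0.47 ± 0.14 between the *Tyrobp*-null groups (adjusted p = 0.291), where the groups did not overlap, and between −0.16 and 0.21 in the other comparisons. An antisense transcript, *Gm45542*, shares 381 exonic bases with *Tlr3*. It had at most 8 counts in a sample, and the libraries were not directional, so reads of the 2 strands could not be told apart there.

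Thus *Tlr3*, *Tlr4*, *Tlr6* and *Tlr7* did not overlap between Q175;Tyrobp-KO and Tyrobp-KO, 4 of 10 genes, where 5.92% of tested genes were lower without overlap. The same comparison, with 3 Tyrobp-KO samples, also held 6 of 16 microglial markers, 5 of 8 endothelial markers, 5 of 8 monocyte and neutrophil markers and 3 of the 5 tested border macrophage markers at lower levels with p under 0.05, where 8.24% of all genes were. The summed level of the endothelial markers was 33.8 to 51.9 CPM in Q175;Tyrobp-KO and 47.7 to 95.2 CPM in Tyrobp-KO. That of the monocyte and neutrophil markers was 17.97 to 65.3 CPM in Q175;Tyrobp-KO and 54.5 to 123 CPM in Tyrobp-KO, and that of the 7 border macrophage markers 6.92 to 16.8 and 19.9 to 21.1 CPM. Their part in the 4 values was not tested. With offsets for GC content the log2 fold changes were −0.25 (*Tlr3*), −0.31 (*Tlr4*), −0.47 (*Tlr6*) and −0.32 (*Tlr7*), with adjusted p between 0.314 and 0.448, and with 1 fit over all 4 groups the adjusted p was 0.754 for each.

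*Tlr9* (chr9:106222598-106226883), the sensor of CpG DNA, was the most variable of the 10 genes. It stood at 29.0, 38.7, 27.4, 112 and 109 CPM in WT replicates 1, 2, 6, 7 and 8, at 55.6, 66.1 and 27.9 CPM in Tyrobp-KO replicates 15, 19 and 20, at 60.3, 25.8, 72.1, 31.2 and 53.3 CPM in Q175 replicates 3, 4, 9, 14 and 17, and at 37.2, 64.8, 67.2, 86.2 and 80.5 CPM in Q175;Tyrobp-KO replicates 5, 11, 12, 13 and 16. WT thus split into 3 low and 2 high samples, and its range took in the whole of the other 3 groups except Q175 replicate 4. The log2 fold change was 0.47 in Q175;Tyrobp-KO against Q175 (95% interval −0.17 to 1.10, adjusted p = 0.537) and −0.35 in Q175 against WT (−1.30 to 0.60). Leaving out 1 sample moved the latter to between −0.55 (without Q175 replicate 9) and −0.067 (without WT replicate 7).

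Of the 2 adaptor genes, *Myd88* had the smaller spread within groups. It had group means of 31.8 ± 4.45 CPM in WT, 37.7 ± 8.04 in Tyrobp-KO, 29.2 ± 6.16 in Q175 and 34.8 ± 4.19 in Q175;Tyrobp-KO. Its log2 fold change was 0.25 ± 0.16 in Q175;Tyrobp-KO against Q175 (adjusted p = 0.537), higher in 20 of 25 pairs, and 0.32 ± 0.21 in Tyrobp-KO against WT (adjusted p = 0.897), higher in 11 of 15. *Myd88* shares 290 exonic bases with *Acaa1a* on the opposite strand, a gene of peroxisomal fatty acid oxidation that was expressed at 61.1 to 128 CPM, so its counts without strand are uncertain to that extent. *Ticam1* had group means of 19.6 ± 8.66, 21.6 ± 5.19, 18.8 ± 5.41 and 22.8 ± 3.41 CPM in the same order of groups, with log2 fold changes between −0.02 and 0.27 and adjusted p of at least 0.580.

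**Figure D3:**
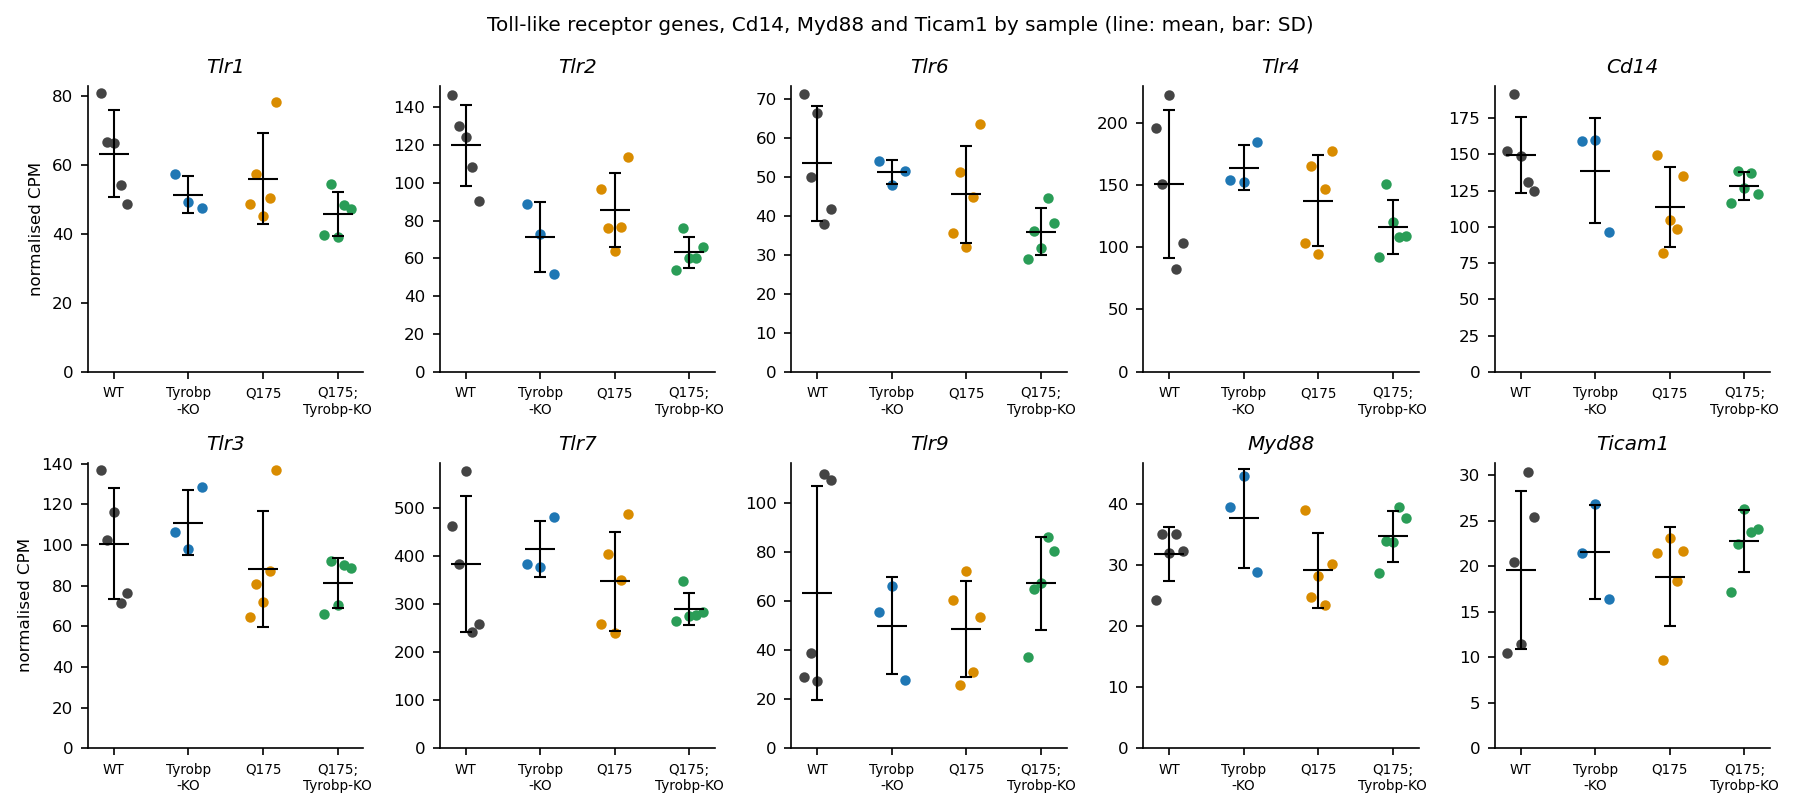
Normalised CPM (y axes from 0) of each of the 10 genes, 1 point per sample in replicate order, with the mean as a line and the SD as a bar for each genotype group. *Tlr2* is highest in WT, where no sample reaches down to the 8 *Tyrobp*-null samples. *Tlr9*, *Tlr4* and *Tlr7* each have a larger SD in WT than in any other group.

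In Q175 against WT all 10 log2 fold changes were below 0, between −0.46 and −0.02, with a median of −0.15 where the median of all 18266 tested genes was −0.02. This count is a description, since the 10 values come from the same samples. The 16 microglial markers also had a median of −0.15 in this comparison, with 12 below 0 and 4 above. Without WT replicate 6, *Tlr4* and *Tlr7* stood at 0.07 each, and without WT replicate 7 *Ticam1* stood at 0.16. The astrocyte markers moved with these groups, all 12 being higher in Q175 and 11 of them with p under 0.05. With a score of the astrocyte, neuron and oligodendrocyte markers in the model, *Tlr9*, *Myd88* and *Ticam1* turned to 0.11, 0.15 and 0.03, while *Tlr2* stood at −0.53. With the same score, *Tlr3*, *Tlr4*, *Tlr6* and *Tlr7* moved to −0.49, −0.49, −0.53 and −0.44 from −0.16, −0.10, −0.20 and −0.11. The sexes were also uneven, with 4 of 5 WT samples male and 4 of 5 Q175 samples female, and with sex as a term *Tlr4* turned to 0.04 and *Tlr2* stood at −0.56.

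Because *Tlr2* was lower without *Tyrobp* on both backgrounds, the deletion was also tested over both at once, with Q175 as a term, in a comparison added after these values had been seen. The mean of *Tlr2* was 66.3 ± 12.5 CPM in the 8 *Tyrobp*-null samples and 103 ± 26.6 CPM in the 10 others, lower in 74 of 80 pairs. The log2 fold change was −0.57 ± 0.14 (95% interval −0.86 to −0.28), and its adjusted p of 0.216 did not pass an FDR of 0.1, at which 0.161% of 18613 tested genes were called. It passed in DESeq2 (adjusted p = 0.0405, where 0.811% of all genes were called), with the score of other brain cells in the model (0.0844) and with GC offsets (0.0974). *Tlr1* stood at −0.30 ± 0.12 (adjusted p = 0.499) and *Myd88* at 0.25 ± 0.12 (adjusted p = 0.566). With *Tlr2* these were the 3 of 10 genes with an unadjusted p under 0.05 (8.81% of all genes), and the other 7 lay between −0.22 and 0.21 with adjusted p of at least 0.726. The comparison was chosen for *Tlr2*, so its p-values are not independent of that choice.

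Whether the effect of *Tyrobp* deletion differed between the Q175 and the WT background was tested as an interaction over the 18 samples. No member was called (0.0% of 18613 genes were), and none of the 10 had an unadjusted p under 0.05 (6.01% of all genes had) or was called by DESeq2, which called 0.0107% of all genes. The difference of log2 fold changes was 0.31 ± 0.28 for *Tlr2*, −0.37 ± 0.36 for *Tlr7* and 0.81 ± 0.63 for *Tlr9*, with adjusted p between 0.736 and 0.779. *Tlr7* is X-linked, and the sexes were compared with genotype as a term. Females and males did not differ detectably in any of the 10 genes (0 called, where 0.043% of 18613 genes were, and 0 with an unadjusted p under 0.05, where 5.18% were; DESeq2 also called 0, against 0.0484% of all genes), with −0.04 (95% interval −0.50 to 0.43) for *Tlr7*, −0.17 for *Tlr4* and −0.14 for *Cd14*.

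The spread of the receptors between samples of the same group was not of 1 kind. As the SD of log2 CPM within groups, *Tlr9* had 0.73, *Ticam1* 0.48, *Tlr4* 0.42, *Tlr7* 0.39 and *Tlr3* 0.34, while *Myd88* had 0.24, where the median of 12029 genes with a mean of at least 5 CPM was 0.32. The GC-poor *Tlr4* and *Tlr7* were highest in WT replicates 1 and 6, in which the GC-rich *Tlr9* and *Ticam1* were lowest, and the reverse held in WT replicates 7 and 8. The samples themselves differed in this respect. The GC-rich minus the GC-poor quintile of the expressed genes, each as a log2 deviation from the mean of the samples, ran from −0.41 in WT replicate 1 to 0.54 in WT replicate 7. It was −0.30 in WT replicate 6 but 0.045 in WT replicate 8, whose GC-rich quintile stood at −0.065. Offsets for GC content lowered the variance within groups by 70.9% for *Tlr7*, 70.3% for *Tlr3* and 67.2% for *Tlr4*, but by 14.1% for *Tlr9* and 0.746% for *Tlr2*, and raised that of *Cd14* by a small amount (SD 0.28 before and after). These offsets, which are medians over bins of genes, thus removed a small part of the variance of *Tlr9*. What lay behind the rest was not tested.

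**Figure D4:**
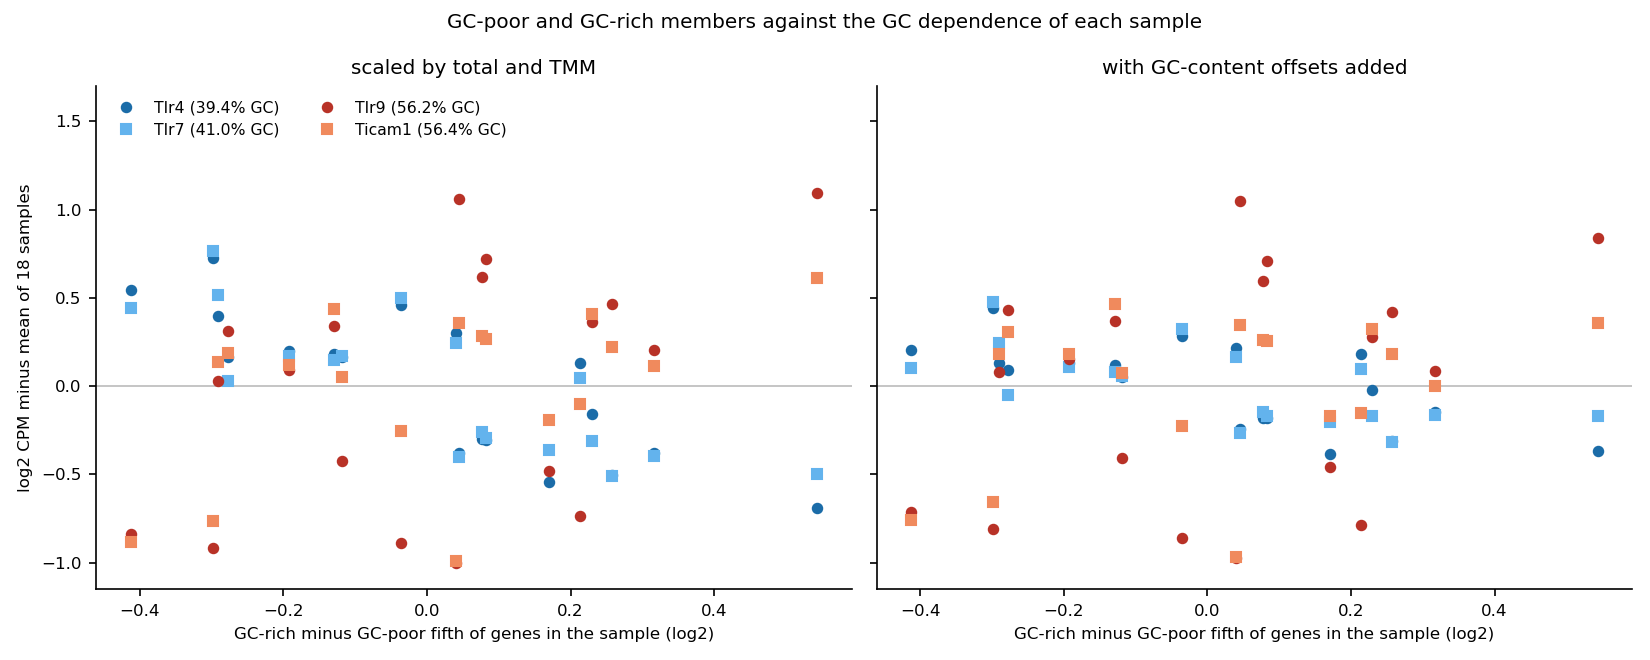
log2 CPM minus the mean of 18 samples (y axis) for *Tlr4* and *Tlr7* (GC-poor) and *Tlr9* and *Ticam1* (GC-rich) against the GC dependence of each sample (x axis), before (left) and after (right) offsets for GC content. The GC-poor pair falls from left to right in the left panel and lies closer to 0 in the right panel, while *Tlr9* keeps its spread.

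The genes most like *Tlr9*, by the root mean square difference of log2 CPM profiles scaled to mean 0 and SD 1 over the 18 samples, were *Wipf1* (0.155), *Plxnb2* (0.188), *Man2b1* (0.190), *Elf4* (0.193) and *Wasf2* (0.197), in units of SD. Their GC content ran from 49.7% to 57.35%, where that of *Tlr9* was 56.21%. In the family, *Tlr5* (0.338), *Tlr12* (0.465) and *Ticam1* (0.491) were closest to *Tlr9* and *Tlr7* was farthest (1.81). The genes most like *Tlr7*, the most abundant member per length, were *Srsf10* (0.165), *Stt3a* (0.184), *Cept1* (0.206), *Casp1* (0.206) and *Cdc42* (0.211), whose GC content of 39.5% to 42.6% was near that of *Tlr7*. In the family, *Tlr4* (0.224), *Tlr13* (0.410), *Tlr3* (0.481) and *Tlr6* (0.494) were closest to *Tlr7*. These are descriptions over samples that share library composition.

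The other receptors of the family had no call either. *Tlr13* followed *Tlr7*, with group means of 274 ± 83.6, 269.5 ± 21.6, 237 ± 80.5 and 199 ± 33.8 CPM in WT, Tyrobp-KO, Q175 and Q175;Tyrobp-KO. Its log2 fold change was −0.46 ± 0.15 between the *Tyrobp*-null groups (adjusted p = 0.294). These groups did not overlap either, so that the pattern was not particular to the 4 members that showed it (5.92% of tested genes were lower without overlap). *Tlr12* and *Tlr5* lay between −0.12 and 0.44 in the 4 comparisons, with adjusted p of at least 0.537. *Tlr8* had 17 to 33 counts in the Tyrobp-KO samples and 3 to 18 in all others, with a log2 fold change of 1.38 ± 0.59 in Tyrobp-KO against WT (adjusted p = 0.703). Between the *Tyrobp*-null groups it stood at −1.54 ± 0.53 (adjusted p = 0.307), without overlap in CPM. It passed the filter through the Tyrobp-KO group, where it was high, which bears on both values. *Tlr8* did not pass the filter in the comparisons without Tyrobp-KO and was not tested there.

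The rest of the pathway was followed in 5 lists, and edgeR called none of their genes in any of the 4 group comparisons. DESeq2 called *Ccl3* and *Ccl4* at lower levels in Q175;Tyrobp-KO against Q175 and in Tyrobp-KO against WT. In Q175;Tyrobp-KO against Tyrobp-KO it called *Hsp90b1*, *Cd36* and *Nfkbia* at lower levels and *Tab1*, which codes for a partner of the kinase TAK1, at a higher level. Of the 11 co-receptors and chaperones, 1 was higher with p under 0.05 in Q175 against WT (5.47% of all genes were), 1 lower in Q175;Tyrobp-KO against Q175 (4.56%), none in Tyrobp-KO against WT (6.82% in either direction) and 4 lower in Q175;Tyrobp-KO against Tyrobp-KO (8.24%). Among them *Unc93b1*, whose product carries the endosomal receptors to their compartment, was expressed at 274 to 712 CPM. *Cd36*, a scavenger receptor that presents lipids to TLR2 heterodimers, had group means of 5.82 ± 2.58 CPM in WT, 4.25 ± 1.96 in Tyrobp-KO, 4.28 ± 2.56 in Q175 and 1.45 ± 0.722 in Q175;Tyrobp-KO. Its log2 fold change was −1.55 ± 0.44 in Q175;Tyrobp-KO against Q175 (adjusted p = 0.533). *Hsp90b1*, the chaperone gene that most of these receptors need for folding, stood at −0.43 ± 0.11 between the *Tyrobp*-null groups (adjusted p = 0.291). *Lbp*, the lipopolysaccharide-binding protein gene, reached 7.49 CPM in Q175 and at most 0.488 CPM in WT (adjusted p = 0.4996), and both groups held a sample without counts. It was the 1 gene with p under 0.05 there, and it passed the filter through Q175, where it was high, which bears on its value and on that count.

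Of 21 adaptors and kinases, 3 had p under 0.05 and a higher level in Q175;Tyrobp-KO than in Q175 (3.45% of all genes had), and none a lower level. They were *Ikbkg*, the regulatory subunit of the IκB kinase (0.29 ± 0.11), *Traf6*, the ubiquitin ligase downstream of MYD88 (0.33 ± 0.12), and *Pik3ap1* (0.60 ± 0.27), with adjusted p of 0.533 each. Between the *Tyrobp*-null groups 2 genes of this list were higher and 2 lower with p under 0.05 (4.98% and 8.24% of all genes). In Q175;Tyrobp-KO against Q175 the median of this list was 0.22 and that of the 10 transcription factors 0.27, where the median of all tested genes was −0.05. In Tyrobp-KO against WT the 2 medians were −0.01 and 0.02, where that of all tested genes was 0.02. In Q175 against WT the medians were −0.12 and −0.10, with 1 gene of each list lower at p under 0.05, where 0.766% of all genes were. These were *Tbk1*, a kinase of the interferon branch (−0.32 ± 0.15, adjusted p = 0.795), and *Rel*, an NF-κB subunit (−0.42 ± 0.19, adjusted p = 0.796).

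The negative regulators were 14 genes, 13 of them tested. *Nfkbia*, which codes for the NF-κB inhibitor IκBα and is itself induced by NF-κB, stood at −0.40 ± 0.16 in Q175;Tyrobp-KO against Q175 (adjusted p = 0.533) and at −0.52 ± 0.12 against Tyrobp-KO (adjusted p = 0.291). *Nfkbid*, which codes for a nuclear protein of the IκB family, stood on the other side in Q175;Tyrobp-KO against Q175, at 0.38 ± 0.17 (adjusted p = 0.533). *Tnfaip3*, which codes for the deubiquitinating enzyme A20, had a mean of 73.9 ± 4.62 CPM in WT and 56.1 ± 11.8 CPM in Q175 (log2 fold change −0.37 ± 0.17, adjusted p = 0.795). *Socs1*, an inhibitor of cytokine signalling, had a mean of 2.05 ± 0.664 CPM in WT and 4.03 ± 0.994 CPM in Tyrobp-KO (log2 fold change 1.05 ± 0.36, adjusted p = 0.610).

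Of the 18 genes that Toll-like receptor signalling induces, the chemokine genes *Ccl3* and *Ccl4* fell with *Tyrobp* deletion when it was tested over both backgrounds, the added comparison. *Ccl3* stood at 37.9, 21.5, 20.95, 20.5 and 16.3 CPM in WT, at 8.99, 4.24 and 8.27 CPM in Tyrobp-KO, at 9.76, 18.6, 6.97, 23.3 and 32.2 CPM in Q175 and at 3.07, 5.19, 5.402, 4.18 and 5.52 CPM in Q175;Tyrobp-KO. On each background the *Tyrobp*-null samples lay below the others in *Ccl3* without overlap, as 3.28% of tested genes did on the WT and 0.36% on the Q175 background. *Ccl4* did so on the WT background only. On the Q175 background its groups overlapped, with 6.79 CPM in Q175;Tyrobp-KO replicate 11 and 4.78 CPM in Q175 replicate 9. The log2 fold change over both was −1.85 ± 0.27 (adjusted p = 0.00265) for *Ccl3* and −1.76 ± 0.32 (adjusted p = 0.0275) for *Ccl4*, the 2 genes of the 15 tested that edgeR called. DESeq2 called the same 2 and, at a higher level, *Il12b*, which stood at 0.594 CPM or less in WT and Q175 and passed the filter through the *Tyrobp*-null groups. The list as a whole did not fall, since 4 of the 15 were higher and 2 lower with p under 0.05. Of all genes, 1.4% were higher and 7.41% lower with that p. Of the 15, 6 stood above 0 and 9 below. Of 12 genes of the response to tissue dissociation, 3 were lower with p under 0.05 in the same comparison (7.41% of all genes). In Tyrobp-KO against WT 3 were lower with that p (3.15% of all genes), *Egr1* having a median of 12.3 CPM in WT and 3.58 CPM in Tyrobp-KO. There, 6 of the 12 were above 0 and 6 below, with a median log2 fold change of 0.08. Over both backgrounds 4 were above 0 and 8 below, with a median of −0.15. The summed level of these 12 genes was 147 to 334 CPM in WT, 191 to 234 in Tyrobp-KO, 180.5 to 218 in Q175 and 161 to 219 in Q175;Tyrobp-KO, none of them was at 0 in all samples, and their part in the values of *Ccl3*, *Ccl4* and *Tlr2* was not tested.

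In the single comparisons *Ccl3* did not pass, at −1.95 ± 0.37 in Q175;Tyrobp-KO against Q175 (adjusted p = 0.335) and −1.65 ± 0.35 in Tyrobp-KO against WT (adjusted p = 0.565), while DESeq2 gave adjusted p of 0.000407 and 0.00354. *Ccl5*, another chemokine gene, had a mean of 5.34 ± 3.52 CPM in Tyrobp-KO and 1.23 ± 0.811 CPM in WT (log2 fold change 2.17 ± 0.67, adjusted p = 0.593). *Tnf* stood between 1.31 and 8.05 CPM over all samples. Between the *Tyrobp*-null groups, 14 of the 18 induced genes were tested. Of these, 13 stood below 0 and 1 above, with a median log2 fold change of −0.44. With p under 0.05, 3 were lower (8.24% of all genes were).

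**Figure D5:**
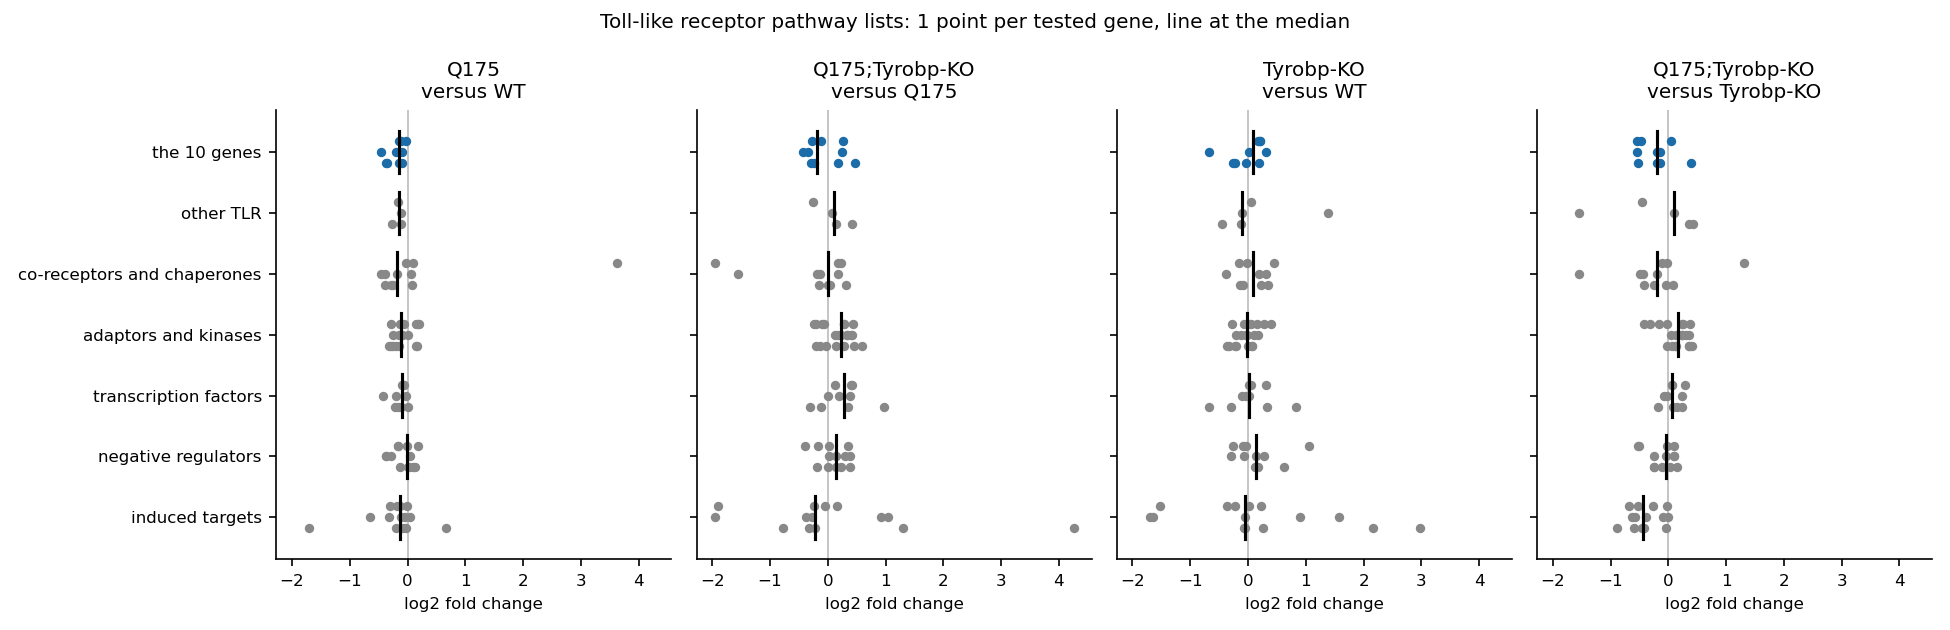
log2 fold change (x axis) of the 10 genes studied and of every tested gene of the other receptors and the 5 pathway lists in the 4 group comparisons, with a line at the median of each list. The 10 genes lie between −0.67 and 0.47 in all panels, while single genes of the co-receptors and the induced targets, such as *Ccl3* at −1.95, lie farther out.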

How the data were processed

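RNA of microglia enriched with CD11b beads from mouse striatum was sequenced after SMART-Seq amplification with non-directional libraries. The labels give a pair of striata per sample where the methods give 1. Per the methods, the authors mapped reads by STAR 2.5 to GRCm38 and used featureCounts on a UCSC gene model, while the submitters' processing notes name GRCh38. The table the authors deposited holds raw read counts. Its 55536 Ensembl identifiers were all found in GENCODE M21 (GRCm38), the source of symbols, positions and lengths here. The table has 2 further columns that no label names, and they were not used.

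Counts were normalised with TMM in edgeR 4.0.16 (R 4.3.3). A gene entered a comparison where 1 or more of its samples reached 1 CPM. The quasi-likelihood test of edgeR was fitted on the samples of both groups, with Benjamini-Hochberg adjustment over all tested genes and an FDR of 0.1. The interaction and the comparison of sexes used all 18 samples. Log2 CPM values of single samples had 0.5 CPM added. The fits were tested on simulated data. The labels name samples and not mice, so p-values measure the spread between these samples. Molecular identifiers were not used, so that reads are not independent molecules, and 98 counts or more lay behind each value of the 10 genes.

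Alternatives were DESeq2 1.42.0 (Wald test), its size factors, total counts, filterByExpr, 1 fit over all groups, no filter on low counts, a stricter FDR (0.05), sex or a score of astrocyte, neuron and oligodendrocyte markers as a term, and leaving out each sample. The fit with offsets for GC content (20 bins of genes, at least 5 CPM) and the comparison of *Tyrobp* deletion over both backgrounds were added after seeing the data. The members and the gene lists were chosen with earlier results of these data known. All 10 members were named, together with the other receptors and, from each pathway list, the genes called and otherwise some of the 2 with the smallest p per comparison. *Pik3ap1*, *Ccl5*, *Ly96*, *Unc93b1*, *Tab1*, *Il12b* and *Egr1* were named besides after their values had been seen. For *Tlr9*, the member of largest SD, and *Tlr7*, the most abundant per length, the 5 genes of most similar profile were named.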

Additional observations from a re-analysis of the deposited data

Results flagged for a closer look

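In 3 of 30 groups of 5 samples, 1 sample stood apart from the other 4 by more than 0.71 of the range of log2 CPM, a limit that chance passes in about 1 of 20 groups. *Tlr7* stood at 348 CPM in Q175;Tyrobp-KO replicate 11, above the other 4, with a gap of 0.745 of the range. *Myd88* stood at 24.3 CPM in WT replicate 1, below the other 4, with a gap of 0.753. *Ticam1* stood at 9.66 CPM in Q175 replicate 4, below the other 4, with a gap of 0.733. The Tyrobp-KO group, with 3 samples, was not examined in this way.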

How the results depend on the processing

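No paired analysis was possible because the groups share no replicate numbers in the labels. The count of the 10 genes called stayed at 0 in the planned comparisons under every alternative, except that DESeq2 called 2 in Q175;Tyrobp-KO against Tyrobp-KO. For *Tyrobp* deletion over both backgrounds, which was added after seeing the data, it was 1 (*Tlr2*) in DESeq2, with the score of other brain cells and with GC offsets, and 0 otherwise. Leaving out each sample gave 0 in every comparison. Of 1366 alternative values of the genes in the comparisons they are printed for, 1303 kept their direction and their side of the threshold, 12 passed it only under the alternative and 51 changed sign, none of these past the threshold. Over all 10 genes, 35 of 270 alternative values changed sign in the interaction and 48 of 260 between the sexes, with 0 called. The cause of the sign changes was not tested. The following are log2 fold changes. In Q175 against WT, *Tlr4* turned to 0.040 with sex in the model, and *Tlr9*, *Myd88* and *Ticam1* to 0.11, 0.15 and 0.034 with the score. With total counts as scaling, *Tlr3* turned to 0.016 in Q175;Tyrobp-KO against Q175 and *Tlr6* to −0.024 in Tyrobp-KO against WT. There, *Tlr6* was −0.062 in 1 fit over all groups, and *Cd14* was 0.097 with sex and 0.13 with the score. *Ticam1* was −0.019 with sex between the *Tyrobp*-null groups. Between the sexes, *Cd14* was 0.0003 with the score and *Tlr7* 0.037 with GC offsets. Over both backgrounds, *Tlr3* was 0.023 in DESeq2 and with its size factors, 0.075 with total counts, 0.033 with no filter, 0.0048 with the score and 0.046 with GC offsets, and *Tlr4* was 0.0073 with total counts. Leaving out each sample turned values in these ranges. In Q175 against WT, *Tlr4* ran from −0.29 to 0.066, *Tlr7* from −0.31 to 0.071 and *Ticam1* from −0.19 to 0.16. In Q175;Tyrobp-KO against Q175, *Tlr3* ran from −0.21 to 0.098. In Tyrobp-KO against WT, *Tlr6* ran from −0.10 to 0.13, *Tlr9* from −0.53 to 0.044 and *Cd14* from −0.16 to 0.16. Between the *Tyrobp*-null groups, *Tlr2* ran from −0.38 to 0.015, *Cd14* from −0.34 to 0.0004, *Myd88* from −0.30 to 0.022 and *Ticam1* from −0.11 to 0.26. Between the sexes, *Tlr4* ran from −0.40 to 0.068 and *Tlr7* from −0.23 to 0.18, and over both backgrounds *Tlr3* ran from −0.052 to 0.12.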
